A study of Bos taurus with 16 samples.

Results

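EGR1 (ENSBTAG00000010069), FOS (ENSBTAG00000004322) and CCN2 (ENSBTAG00000006367) were followed in adipose tissue and in skeletal muscle of pre-weaned calves. They are 3 of the 44265 features in the deposited count tables, they were picked by their Ensembl identifiers, and each is the only identifier on its merged locus. The choice was made with the muscle comparison in view, in which all 3 were called lower with 5-hydroxytryptophan (5-HTP, the immediate precursor of serotonin). The values of that comparison are therefore given as a description, without a test. The comparison of tissues uses the same muscle values and is a description too. The tests concern adipose tissue and the variation among calves.

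RNA was sequenced from 16 libraries of Holstein bull calves that were about 21 days old when supplementation began. In each tissue, 4 calves given saline in milk replacer (CON) were set against 4 calves given 5-HTP in milk replacer, for 10 days. The tissues were subcutaneous white adipose tissue and gluteus medius, a skeletal muscle of the rump. The total count per library ranged from 17289845 to 25221353 in adipose tissue and from 20655954 to 28649548 in muscle tissue.

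Immediate early genes are transcribed within minutes of a stimulus, from transcription factors that are already present in the cell, and their transcripts are short-lived. EGR1 is a zinc finger transcription factor, and FOS is a basic leucine zipper protein that pairs with JUN proteins to form the transcription factor AP-1. CCN2, also called connective tissue growth factor, is a secreted matricellular protein that responds early to transforming growth factor beta and to mechanical load. In muscle and adipose tissue these genes are known to respond to growth factors, contraction, stretch, injury and handling of the tissue.

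The transcripts were also the targets of oligonucleotides that the study designed across exon junctions for qPCR. The forward primers are shown here because they tie each gene name to a stretch of its transcript, and they are written 5′ to 3′ in lower case as a whole. For muscle tissue the study reports that qPCR of these genes gave the same direction as sequencing and a similar log2 fold change. It used the RNA samples that were sequenced. The qPCR measurements themselves were not analysed here.
EGR1: cagcagcggtagcagcag
FOS: aaccatgacaggaggcagag
CCN2: gaggaatgggtgtgtgatga

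The labels of the tissues were checked with the skeletal muscle fibre genes that could be named. Only 2 of 10 could be, IGFN1 and a locus without an Ensembl identifier that the study lists as TTN (titin). Their summed level was between 1751 and 4368 CPM (each count relative to the size of its library, after trimmed-mean normalization, TMM, in edgeR) in CON muscle and between 943 and 1625 CPM in 5-HTP-supplemented muscle. Most of it was IGFN1, since the TTN locus was between 12.8 and 59.4 CPM in muscle. In adipose tissue it was 0 in all 4 CON libraries and between 0.216 and 0.797 CPM in the 5-HTP libraries. None of 8 adipocyte markers could be matched to a feature. The labels number the libraries 1 to 8 in both tissues, but do not say that a number stands for the same calf, so a number names a library within its tissue here. The study's methods describe 8 calves in all, so that adipose and muscle libraries share calves, and the fit over both tissues treats them as separate.

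In muscle tissue, the transcription factor genes were widely spread among CON calves and low in every 5-HTP-supplemented calf. EGR1 reached 144, 687, 81.8 and 37.8 CPM in muscle libraries 1 to 4, which are CON, but only 26.8, 19.5, 18.6 and 11.4 CPM in the 5-HTP libraries 5 to 8. The lowest CON calf lay above the highest 5-HTP-supplemented calf, and CON calf 2 was 4.78-fold above the next CON calf. FOS reached 31.0, 116, 26.4 and 22.5 CPM in these CON libraries against 5.69, 6.83, 8.52 and 15.8 CPM with 5-HTP. Here CON calf 2 was 3.73-fold above the next, while the other 3 CON calves lay close together.

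CCN2 was counted far less deeply and showed no such outlying calf. Its muscle level was 3.13, 2.67, 1.36 and 1.21 CPM in CON libraries 1 to 4, from between 35 and 77 counts. With 5-HTP it was 0.258, 0.414, 0.852 and 0.783 CPM in libraries 5 to 8, from between 8 and 19 counts. For each of the 3 genes all CON calves lay above all 5-HTP-supplemented calves, as they did for 1.37% of all features. For CCN2 the counting intervals of neighbouring calves still overlapped. For CON calf 4 the 95% Poisson interval, which covers counting error only, ran from 0.850 to 1.68 CPM, and for 5-HTP-supplemented calf 7 from 0.513 to 1.33 CPM.

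The estimated logFC in muscle tissue was -3.64 for EGR1 (standard error 0.65), -2.41 for FOS (0.49) and -1.87 for CCN2 (0.49). Among the 16878 features tested, EGR1 had the lowest logFC of all, FOS the 8th lowest and CCN2 the 17th lowest. At the FDR threshold of 0.20 the likelihood ratio test of edgeR called all 3, along with 0.13% of all features in this direction and 0.201% in either. The quasi-likelihood test of edgeR called none of them and 0% of all features in this direction. Since the members were chosen on this contrast, nothing is read from these counts. Without CON calf 2 the logFC was -2.20 for EGR1 and -1.54 for FOS. In a bulk tissue sample, fewer cells of a type and less RNA per cell cannot be told apart.

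Of 6 leukocyte and macrophage markers, the complement gene C1QB and the macrophage lectin SIGLEC1 could be named, and both are features that the study listed for this same muscle comparison. Their summed level was between 5.997 and 18.7 CPM in CON muscle and between 2.49 and 5.34 CPM in 5-HTP-supplemented muscle, so that it also separated the groups. C1QB was highest in CON calf 1, at 17.1 CPM against 9.09 CPM in CON calf 2, whereas SIGLEC1 was highest in CON calf 2, at 2.36 CPM against 1.64 CPM in CON calf 1. The summed level of the muscle fibre genes, IGFN1 and the locus listed as TTN, separated the groups in the same direction. The study also listed both for this comparison. The part of these cell types in the levels of EGR1, FOS and CCN2 was not tested.

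**Figure D1:**
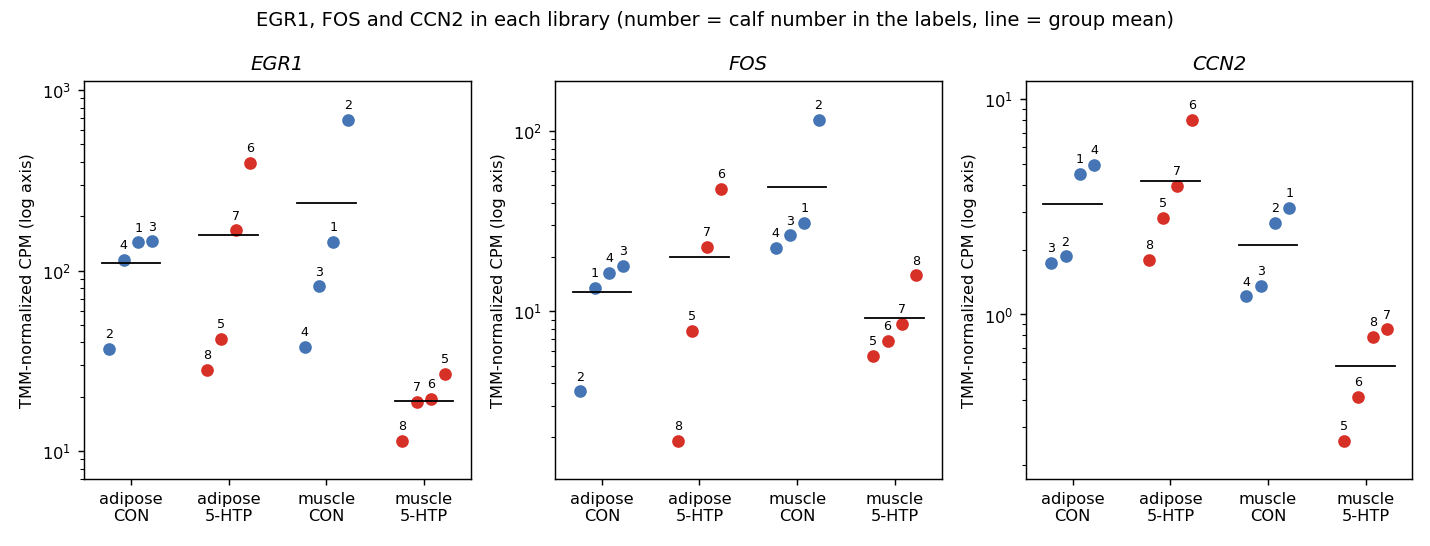
TMM-normalized CPM (log axis) of EGR1, FOS and CCN2 in each of the 16 libraries, grouped by tissue and treatment. Points are libraries with the number from their label, and lines are group means. In muscle tissue the CON and 5-HTP points of each gene lie apart, with CON calf 2 at 687 CPM of EGR1, whereas in adipose tissue they are interleaved, with 5-HTP-supplemented calf 6 highest in each gene.

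In adipose tissue, by contrast, the levels of all 3 genes were interleaved between the treatments, and no difference was detected. EGR1 reached 143, 37.0, 145 and 115 CPM in adipose libraries 1 to 4, which are CON, and 41.8, 394, 167 and 28.2 CPM in the 5-HTP libraries 5 to 8. The latter group held both the highest and the lowest library. The mean of the CON group was 110 ± 50.6 CPM, and that of the 5-HTP group 158 ± 170 CPM (SD, n = 4 each).

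FOS ran in nearly the same order of libraries in adipose tissue, with only CON libraries 1 and 4 trading places. It reached 13.4, 3.60, 17.9 and 16.4 CPM in the CON libraries and 7.76, 47.5, 22.8 and 1.91 CPM with 5-HTP, where the group means were 12.8 ± 6.43 and 19.996 ± 20.4 CPM (SD, n = 4 each). CCN2 reached 4.49, 1.86, 1.73 and 4.96 CPM in the CON libraries and 2.81, 8.06, 3.97 and 1.79 CPM with 5-HTP, or means of 3.26 ± 1.70 and 4.16 ± 2.75 CPM (SD, n = 4 each). Calf 6 was highest for each gene, and calves 2 and 8 were among the 3 lowest for each gene. Calves 2 and 8 also had the smallest total counts of the adipose libraries (17289845 and 17649039), and calf 6 the largest (25221353). The part of depth in these levels was not tested.

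The logFC in adipose tissue was 0.52 for EGR1 (standard error 0.69), 0.64 for FOS (0.74) and 0.35 for CCN2 (0.54), with an FDR of 0.999 for each in the likelihood ratio test of edgeR. At the FDR threshold of 0.20 this test called 0 of the 3 genes and 0.109% of all 20167 features. The quasi-likelihood test of edgeR called 0 of the 3 and 0.00496% of all features, and DESeq2 also called 0 of the 3. The groups overlapped for each gene, whereas they did not overlap for 2.38% of all features. None had an unadjusted P value under 0.05 in either test of edgeR, while 4.41% of all features did in the likelihood ratio test. In the two-sided exact permutation test over the calves, p was 0.971 for EGR1, 1 for FOS and 0.629 for CCN2. The 95% intervals from the standard errors ran from -0.84 to 1.87 for EGR1, from -0.81 to 2.09 for FOS and from -0.71 to 1.41 for CCN2, so that sizeable differences in either direction remained possible at this number of calves. The positive sign rested on calf 6. Without it the logFC was -0.48 for EGR1, -0.25 for FOS and -0.19 for CCN2.

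Set side by side, the logFC was negative in muscle tissue and positive but not called in adipose tissue for each gene. Whether the effect of 5-HTP differed between tissues was not tested, since the muscle values had chosen the genes.

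**Figure D2:**
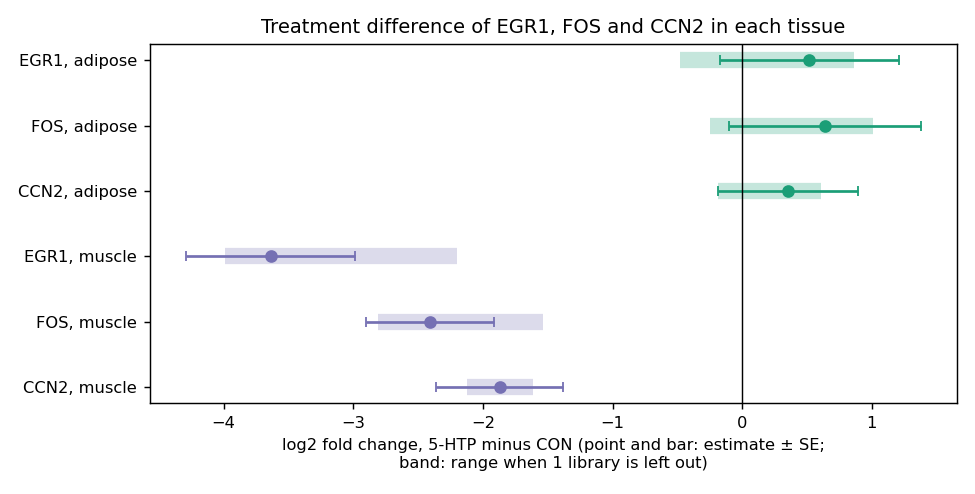
Log2 fold change of 5-HTP minus CON (horizontal axis) for each gene in each tissue. Points and bars are estimates ± standard error, and bands show the range when 1 library is left out. The adipose bands cross 0, from -0.48 to 0.86 for EGR1. The muscle bands of all 3 genes stay below 0, as they must where every CON library lies above every 5-HTP library.

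With all calves included, the transcription factor genes were among the most variable features of both tissues, and CCN2 was less so. For FOS in muscle tissue this rested on calf 2. In adipose tissue, the SD of log2(CPM + 0.5) around the treatment means was 1.40 for EGR1, 1.51 for FOS and 0.75 for CCN2, where the median over all features tested was 0.40. The SD of EGR1 exceeded that of 99.5% of these features, the SD of FOS that of 99.6% and the SD of CCN2 that of 91.7%. Counting error would by itself give an SD of about 0.040 for EGR1, 0.13 for FOS and 0.20 for CCN2.

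For EGR1 and FOS the wider group was 5-HTP in adipose tissue and CON in muscle tissue. In adipose tissue the highest calf exceeded the lowest 3.92-fold for EGR1 and 4.98-fold for FOS among CON calves, and 14.0-fold and 24.9-fold among 5-HTP-supplemented calves. In muscle tissue the wide group was CON, with an 18.2-fold range of EGR1 and a 5.15-fold range of FOS, against 2.34-fold and 2.78-fold in 5-HTP-supplemented calves. CCN2 ranged 2.87-fold in CON and 4.49-fold in 5-HTP adipose tissue, and 2.58-fold in CON and 3.30-fold in 5-HTP muscle tissue. The last of these ranges came from between 8 and 19 counts. By the SD of log2(CPM + 0.5), CCN2 in muscle tissue was narrower with 5-HTP, at 0.40 against 0.54 in CON. The 2 measures thus differ on its wider group in muscle tissue. Counting error by itself would give an SD of about 0.42 in 5-HTP muscle without a pseudocount. These differences in range are a description of 4 calves a group and were not tested.

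In muscle tissue, the SD around the treatment means was 1.30 for EGR1, 0.87 for FOS and 0.48 for CCN2, with a median of 0.31 over all features tested. It exceeded that of 99.8%, 98.7% and 83.8% of the features. Without calf 2 it fell to 0.72 for EGR1 and 0.49 for FOS. The SD of CCN2 was then 0.48, so that FOS and CCN2 hardly differed. For CCN2 the SD in muscle depended on the pseudocount, at 0.48 with 0.5 CPM and 0.66 with 0.1 CPM. Counting error by itself would give an SD of about 0.33 for CCN2 without a pseudocount.

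The dispersion fitted by edgeR showed the same order. Its square root, the biological coefficient of variation, was 0.677 for EGR1 in adipose tissue, where the trend over features of like abundance was at 0.264. For FOS it was 0.721 against 0.311, and for CCN2 0.516 against 0.440. In muscle tissue the values were 0.638 against 0.208 for EGR1, 0.480 against 0.216 for FOS and 0.430 against 0.411 for CCN2. With all calves included, EGR1 and FOS thus stood well above the trend in both tissues and CCN2 near it.

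**Figure D3:**
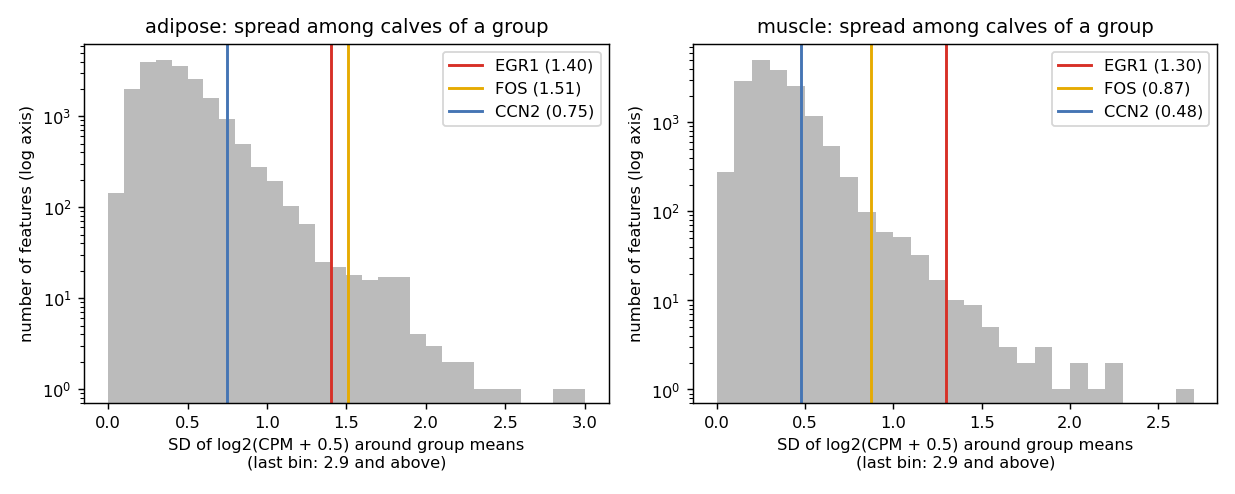
Number of features (log axis) by the SD of log2(CPM + 0.5) around the treatment means in adipose (left) and muscle tissue (right), with EGR1, FOS and CCN2 as vertical lines. EGR1 and FOS lie in the right tail of both panels, at 1.40 and 1.51 in adipose tissue, and CCN2 lies closer to the bulk. Without calf 2 the SD of FOS in muscle tissue was 0.49.

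EGR1 and FOS rose and fell together among the calves in adipose tissue. The Pearson correlation of their deviations from the treatment means was r = 0.965 over 8 calves (two-sided exact permutation within treatments, p = 0.00521, adjusted p = 0.0469 over 9 relations). The Spearman correlation was 0.976 (exact permutation p = 0.00694, adjusted p = 0.0625). Without calves 2 and 8, the farthest from the median of EGR1, r was 0.970 (n = 6, exact permutation p = 0.0833). The size of r hardly moved when any calf was left out, from 0.946 to 0.988. The adjusted p rose above 0.05 in 7 of these 8 cases, to at most 0.203, each without calf 1, 2, 4, 5, 6, 7 or 8. With fewer calves the test has fewer arrangements, so the smallest p that it can reach is larger. The rise in p, here and with n = 6, therefore cannot show whether the relation weakened.

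CCN2 followed the transcription factor genes in adipose tissue less closely. Its r was 0.783 with EGR1 and 0.776 with FOS (n = 8, exact permutation p = 0.0417 and 0.0503, adjusted p = 0.113 for each), with Spearman correlations of 0.619 and 0.643 (exact permutation p = 0.181 and 0.153). CON calf 3 stood apart, with 145 CPM of EGR1 and 17.9 CPM of FOS but the lowest CCN2 value, 1.73 CPM. Without calf 3, r was 0.957 and 0.960 (exact permutation, adjusted p = 0.0417 for each). Since calf 3 is named for standing apart, r had to rise without it, and nothing is read from this p. Without any other calf the adjusted p was between 0.156 and 0.348 (exact permutation). Without calves 2 and 8, which were the farthest from the median, r was 0.608 and 0.587. Without calf 6 alone, the highest for each gene, r was 0.601 and 0.623. These relations thus rested in part on the lowest calves and in part on the highest.

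In muscle tissue the co-variation of EGR1 and FOS was not detected and depended on a single calf. Over 8 calves r was 0.673 (exact permutation p = 0.231, adjusted p = 0.346) and Spearman's correlation 0.429 (exact permutation p = 0.406). Without calf 2, r was -0.25. Among CON calves both genes ran in the order 4, 3, 1, 2 from lowest to highest. Among 5-HTP-supplemented calves the order of EGR1 was 8, 7, 6, 5 and that of FOS the reverse.

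FOS and CCN2 had r = 0.634 in muscle tissue (n = 8, exact permutation p = 0.120, adjusted p = 0.216) and a Spearman correlation of 0.786 (exact permutation p = 0.0625). The former was lower than for EGR1 and FOS, and the latter was higher. The CCN2 values of the 5-HTP group came from between 8 and 19 counts. Without the 2 calves farthest from the median of FOS, r was 0.804 (n = 6, exact permutation p = 0.0278). EGR1 and CCN2 had r = 0.459 (n = 8, exact permutation p = 0.418) and a Spearman correlation of 0.429 (exact permutation p = 0.403), and r was -0.087 without calves 2 and 4. None of the muscle relations passed the adjusted threshold of 0.05.

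**Figure D4:**
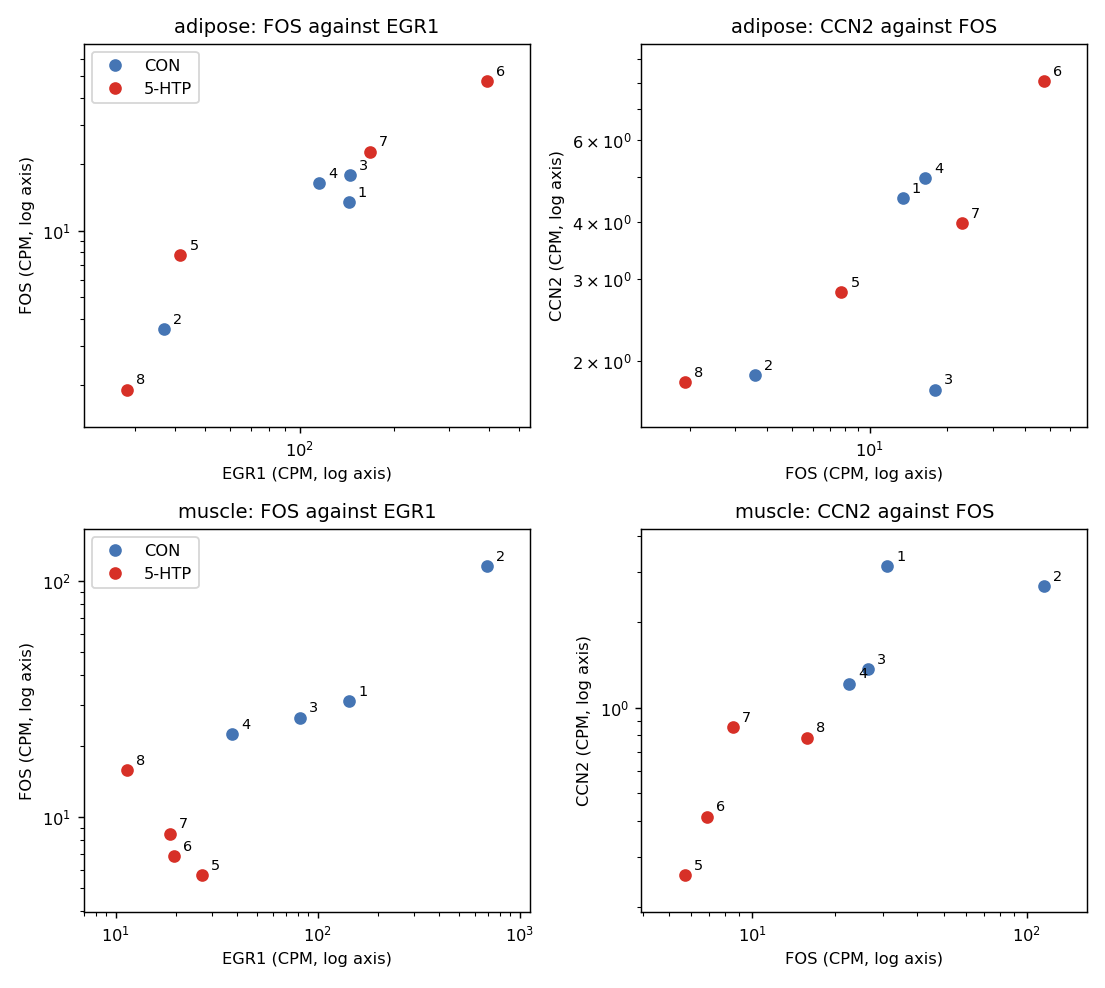
FOS against EGR1 and CCN2 against FOS in CPM (log axes) in adipose (top) and muscle tissue (bottom), each point a library with its number, coloured by treatment. The adipose points of EGR1 and FOS fall near a line across both treatments, from calf 8 to calf 6, whereas in muscle tissue the order of FOS is reversed against EGR1 within the 5-HTP group.

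No relation between same-numbered adipose and muscle libraries passed the adjusted threshold. Library 2 had the lowest EGR1 of the CON group in adipose tissue, 37.0 CPM, and the highest in muscle tissue. The deviations of same-numbered libraries had r = -0.304 for EGR1 (n = 8, exact permutation p = 0.332), -0.698 for FOS (p = 0.0399, exact permutation, adjusted p = 0.113) and -0.121 for CCN2 (n = 8, exact permutation p = 0.804). The Spearman correlations were -0.190, -0.381 and -0.071 (exact permutation p = 0.608, 0.344 and 0.899). Without the 2 farthest libraries r was -0.069 for EGR1, 0.380 for FOS and 0.440 for CCN2. The sign for FOS thus rested on libraries 2 and 8. Over 14460 loci, adipose libraries 1, 2 and 8 were closest to muscle libraries 3, 1 and 4, and not to their own number.

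Between tissues, the level of FOS relative to the other transcripts of its library was lower in adipose than in muscle tissue when averaged over treatments, and this rested on the CON calves. With TMM over all 16 libraries, the logFC of adipose minus muscle was -1.59 for FOS (standard error 0.48), -0.22 for EGR1 (0.52) and 0.56 for CCN2 (0.38). In CON calves it was -3.13 for FOS (standard error 0.67), -2.30 for EGR1 (0.73) and -0.56 for CCN2 (0.53). In 5-HTP-supplemented calves it was -0.06 for FOS (0.67), 1.87 for EGR1 (0.73) and 1.68 for CCN2 (0.55). These values contain the muscle levels that chose the genes, so no test is given.

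The fit over both tissues put FOS and CCN2, 2 of the 3 genes, within the FDR threshold of 0.20 in the likelihood ratio test of edgeR, as it did 78.1% of all 21849 features, and the quasi-likelihood test 77.6%. CCN2 was the 1 gene on the side higher in adipose tissue, where 42.8% of all features were. Nothing is read from these counts, for the same reason. CCN2 left the threshold with the replicate number as a block (logFC 0.48) and without replicate 3, 4, 5 or 6, when its logFC was between 0.22 and 0.58. Without replicate 2 the logFC of FOS was -0.96 and that of EGR1 0.68.

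The scaling between tissues moved all features together. Dividing by the library total alone raised the median logFC of all features from 0.14 to 1.33, and gave 0.94 for EGR1, -0.41 for FOS and 1.78 for CCN2, so that the sign of EGR1, near 0 with TMM, flipped. Relative to the median of all features, the logFC was -0.36 with TMM and -0.38 with library totals for EGR1, -1.74 with either for FOS, and 0.41 and 0.45 for CCN2.

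The ratio of counts between genes of the same library needs no scaling. The EGR1 count was 10.7, 10.3, 8.11 and 7.02 times the FOS count in adipose libraries 1 to 4 (CON) and 5.38, 8.30, 7.34 and 14.8 times in libraries 5 to 8 (5-HTP). In muscle tissue it was 4.63, 5.93, 3.10 and 1.68 times in CON calves and 4.70, 2.86, 2.19 and 0.721 times in 5-HTP-supplemented calves. Only adipose calf 5 fell below the highest muscle value. On the log2 scale the mean ratio was 1.66 higher in adipose tissue, and between 1.26 and 1.96 higher when any number was left out.

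The ratio of FOS to CCN2 was lower in adipose tissue by a log2 difference of -2.39. It ranged from 1.06 to 10.3 in adipose libraries and from 9.91 to 43.4 in muscle libraries. The ratio of EGR1 to CCN2 differed by -0.73 on the log2 scale, and its ranges overlapped widely, from 14.9 to 83.9 in adipose tissue and from 14.6 to 257 in muscle tissue. The ratios were chosen after the values had been seen and contain the muscle counts, so they are given without a test.

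The features whose variation was most like that of each gene were sought over the deviations from the 4 group means in all 16 libraries, as a description without a test. The points share libraries and depth. For EGR1, FOS was the feature with the 2nd highest r of 15695 (r = 0.84), and for FOS, EGR1 was the 10th (r = 0.84). The feature ahead of FOS had no symbol (ENSBTAG00000008573, r = 0.90), as had the feature most like FOS (ENSBTAG00000006556, r = 0.90). CCN2 ranked lower, as the 275th feature for EGR1 (r = 0.65) and the 148th for FOS (r = 0.74).

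Among the 25 features with a symbol in this set, all named by the study for their treatment differences, those next to EGR1 were CCN2, SIGLEC1 (r = 0.62), the amine-degrading enzyme gene AOC1 (r = 0.60) and the matrix remodeling gene listed as MRXA5 (r = 0.59). Next to FOS came AOC1 (r = 0.77), CCN2, SIGLEC1 (r = 0.74) and the complement receptor gene CR2 (r = 0.66). For CCN2 they were FOS (r = 0.74), MRXA5 (r = 0.68), EGR1, the sulfate donor synthase gene PAPSS2 (r = 0.65) and AOC1 (r = 0.62). Many features without a symbol were closer. Of all 15695 features, SIGLEC1 ranked 408th, AOC1 542nd and MRXA5 568th for EGR1. For FOS, AOC1 ranked 67th, SIGLEC1 149th and CR2 417th. For CCN2, MRXA5 ranked 102nd, PAPSS2 154th and AOC1 277th.

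Other genes of the same pathways could not be followed. Of 69 genes in lists of immediate early and AP-1 genes, their upstream kinases and factors, feedback regulators, and the CCN family with its TEAD and transforming growth factor beta partners, 0 could be matched to a feature, because the files carry identifiers without symbols and the symbols used cover 31 features.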

How the data were processed

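Poly(A)-captured RNA of 16 libraries (8 adipose, 8 muscle) was sequenced. Per the submitters' processing notes and methods, the authors trimmed the reads with Trim Galore 0.4.4, aligned them to ARS-UCD1.2 using HISAT2, merged Cufflinks 2.2.1 assemblies with the annotation and counted uniquely mapped reads with htseq-count. The strand setting is not given in the sources used here. The deposited values are whole-number counts without normalization, 1 file per library, and no value pools calves.

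The main tool was edgeR 4.0.16 under R 4.3.3, and DESeq2 1.42.0 was an alternative. Features were tested if 4 or more libraries of a fit had 10 or more counts, after TMM, with the likelihood ratio test named in the study's methods, Benjamini-Hochberg adjustment over all features and a threshold of 0.20. The quasi-likelihood test is given beside it. Tissues were fitted separately for the treatment and together for the tissue comparison, which is given as a description because it contains the muscle values that chose the genes. Steps were tested on simulated counts. Exact permutation tests used log2(CPM + 0.5), and standard errors came from the fitted negative binomial model. At these depths 3 counts correspond to between 0.105 and 0.174 CPM. Intervals cover counting error only.

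The members and gene lists were chosen with earlier results of these data known. Named were the members and, per member, the 5 features with a symbol and at most 2 without one of highest correlation, plus listed genes with a symbol. Symbols came from the study's supplementary tables (31 features), since 0 RefSeq entries carried an Ensembl identifier. No coordinates are given, because the RefSeq table is for ARS-UCD2.0. Alternatives were other tests, scalings, filters, pseudocounts, 1 row per merged locus, a replicate block and leaving out each replicate.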

Additional observations from a re-analysis of the deposited data

Results flagged for a closer look

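EGR1 in adipose tissue of CON calf 2 stood apart from its group. On the log2 scale its gap to the nearest of the other 3 CON calves was 0.830 of the range of the group, just above the 95% critical value of Dixon's test (0.829). Of 12 groups of 4 libraries tested over the genes and tissues, 1 passed, and chance alone passes about 1 in 20. FOS in the same library had a gap of 0.815 of its range. FOS in muscle CON library 2, which the labels do not tie to the same calf, had a gap of 0.805, on the high side. This adipose library had the smallest total count of all, 17289845.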

How the results depend on the processing

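The tests used, filters, RLE normalization and 1 row per merged locus changed no direction and no call of the 3 genes in adipose tissue or between tissues. Adipose treatment logFC ranged with 1 replicate left out from -0.48 to 0.86 (EGR1), -0.25 to 1.01 (FOS) and -0.19 to 0.61 (CCN2), negative for all 3 without 5-HTP replicate 6. Muscle logFC ranged from -3.99 to -2.20 (EGR1) and from -2.81 to -1.54 (FOS), the weakest without CON replicate 2, and from -2.13 to -1.61 (CCN2).

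Between tissues, leaving out replicates gave -0.71 to 0.68 (EGR1), -2.10 to -0.96 (FOS) and 0.22 to 0.77 (CCN2), with 1 to 3 of the 3 genes called. EGR1 was also positive without replicate 5, at 0.040. Library totals in place of TMM, a setting added after the data were seen, gave 0.94 (EGR1) and -0.41 (FOS). The labels do not state that a number is 1 calf, and deviations of same-numbered libraries over 14460 loci correlated between -0.22 and 0.28, over 0.1 for 6 of 8 numbers, with 5 of 8 adipose libraries closest to their own number. With the replicate block CCN2 was at 0.48 and 1 gene was called in place of 2.

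Adipose r of EGR1 with FOS was 0.966 with library totals (adjusted p = 0.0625, exact permutation) and 0.970 without the 2 farthest calves (adjusted p = 0.375, exact permutation). With fewer calves the smallest p that the test can reach is larger, so the second of these p values cannot show a weaker relation. Left-out replicates gave 0.946 to 0.988, 0.601 to 0.957 (EGR1 with CCN2) and 0.623 to 0.960 (FOS with CCN2). Without centring, the latter were 0.765 and 0.767 (adjusted p = 0.0328, exact permutation). That permutation ran across treatments and was adjusted over the adipose relations alone, so its p cannot be set beside the centred ones. In muscle, r of EGR1 with FOS ranged from -0.25 to 0.91, and was -0.50 without the 2 farthest, and r of EGR1 with CCN2 was then -0.087. Across tissues r ranged from -0.56 to 0.22 (EGR1) and from -0.39 to 0.12 (CCN2), where it was also positive, at 0.0065, 0.011 and 0.029, without replicates 2, 6 and 8. Without the 2 farthest it was 0.38 (FOS) and 0.44 (CCN2). The spread in muscle was 0.66 for CCN2 with a pseudocount of 0.1 CPM and ranged from 0.72 to 1.42 (EGR1) and from 0.49 to 0.96 (FOS), lowest without replicate 2. Where no depth or construction is named, the cause was not tested. Depth limits CCN2 in muscle most, where 8 counts were the fewest.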
